A study of Homo sapiens with 8 samples.

Results

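The 46 genes described here encode writers, erasers and partners of histone methylation, histone acetylation and DNA methylation, and their RNA was followed in MOLM13, a human cell line of acute myeloid leukemia. They were chosen by symbol, as a list of chromatin and DNA methylation regulators, from a table of 35369 named genes. All 46 had a row in the table, and all 46 passed the filter on low values that left 13030 genes for testing. Polyadenylated RNA was sequenced from 4 groups of 2 libraries each. The control libraries carry the genotype label WT. The knockdown libraries come from cells with a short hairpin RNA against IGF2BP2, an RNA-binding protein that recognises N6-methyladenosine (m6A) in mRNA and stabilises its targets. The rescue libraries are labelled IGF2BP2 rescue, and the mutant rescue libraries are labelled as a rescue with a mutant IGF2BP2. All cells were infected with virus and, where needed, selected with puromycin. The labels name neither the mutation, the hairpin sequence nor the content of the control virus, and do not say whether the rescue cells also hold the hairpin. They do not tell whether the 2 libraries of a group came from separate cultures, so each p-value reflects library-to-library spread that may be technical.

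Polycomb repressive complex 2 (PRC2) methylates lysine 27 of histone H3 through EZH1 or EZH2 on a scaffold of SUZ12 and EED, and Polycomb repressive complex 1 (PRC1) ubiquitinates histone H2A through RING1 or RNF2 paired with a PCGF protein such as BMI1. KMT2A and its relatives methylate lysine 4 of histone H3. MOLM13 carries a fusion of KMT2A with MLLT3, and in such leukemias menin (MEN1), LEDGF (PSIP1) and DOT1L keep the fusion protein's target genes active. DNMT3A, TET2 and ASXL1 are among the genes most often mutated in myeloid malignancies.

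BMI1 and EED are shown as sequences because BMI1 carries the one member call between knockdown and control, while EED carries the calls of both rescue groups against the knockdown. The 5 letters GGACT, a common core of m6A sites, were searched on the sense strand of the longest coding transcript of each gene in GENCODE v29. BMI1 (chromosome 10, 22321211 to 22331484, plus strand, GRCh38) held 2 such matches in 3428 bases, of which 1 lay in its coding sequence. EED (chromosome 11, 86244544 to 86278813, plus strand) held 0 in 2223 bases. The coding match of BMI1 lies within 1 exon, at position 724 of the coding sequence, and is printed with 10 bases on each side and the match in capitals:
BMI1 coding match, chr10:22329275-22329299, plus strand: ccagagagatGGACTgacaaatgct
The median density was 0.996 matches per kilobase over the 46 members and 0.927 over 11727 tested genes with such a transcript. Over the 7 members called in any comparison it was 0.59. A match is a description of the letters and not a measured m6A site.

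The promoter windows of the same genes, from RefSeq on GRCh38.p14, are printed with the searched letters in capitals. RefSeq gives BMI1 a pair of windows, and the printed one is that with a match; the other, chr10:22321706-22322005, holds none of the letters searched. In the printed window of BMI1 these are CACGTG, the E-box bound by MYC and related factors. In the window of EED they are ATTGG, the reverse complement of the CCAAT letters bound by NF-Y:
BMI1 promoter, chr10:22320849-22321148, plus strand: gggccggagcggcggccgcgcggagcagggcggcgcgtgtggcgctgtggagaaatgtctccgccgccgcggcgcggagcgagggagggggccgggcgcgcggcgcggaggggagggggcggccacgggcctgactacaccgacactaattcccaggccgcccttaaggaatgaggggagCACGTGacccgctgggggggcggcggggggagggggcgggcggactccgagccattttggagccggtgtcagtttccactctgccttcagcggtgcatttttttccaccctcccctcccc
EED promoter, chr11:86244503-86244802, plus strand: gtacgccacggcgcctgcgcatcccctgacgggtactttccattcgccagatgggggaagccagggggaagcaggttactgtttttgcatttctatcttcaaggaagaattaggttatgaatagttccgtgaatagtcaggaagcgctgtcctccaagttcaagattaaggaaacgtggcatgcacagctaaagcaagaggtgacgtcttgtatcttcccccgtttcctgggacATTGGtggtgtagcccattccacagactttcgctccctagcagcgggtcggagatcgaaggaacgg
On both strands, CACGTG was present in 12 of the 69 promoter windows of the 43 members with an entry (17.4%) and in 7.26% of all 35116 windows. These 12 windows belong to 10 members, among them BMI1, TET2, NSD1 and DNMT3A. CCAAT was present in 17 of the 69 windows (24.6%) and in 34.6% of all. The E2F letters TTTCGCGC were found in 1 member window, that of DNMT1, and TTTGGCGC in 1, that of EZH2, against 0.515% and 0.652% of all windows. The core of the interferon-stimulated response element, GAAA followed after 2 bases of any kind by another GAAA, was found in 0 of the 69 member windows and in 3.57% of all.

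In the knockdown libraries IGF2BP2 stood at log2 values of 10.24 and 10.25, against 10.94 and 10.89 in the controls, a difference of -0.67 (limma adjusted p = 0.0147). It was 1.00 higher in the rescue than in the knockdown (adjusted p = 0.00324) and 0.61 higher in the mutant rescue than in the knockdown (adjusted p = 0.0298). Without either knockdown library the call of the mutant rescue was lost (highest adjusted p = 0.19), as it was with no filter on low values (0.0669), quantile normalization (0.0641) or the 2 groups alone (0.0722), and that of the knockdown against control was lost without any 1 of its own 4 libraries (highest adjusted p = 0.123). Summed over 20 genes of S phase, the linear level was 3550 to 3740 ppm (the linear level scaled to a fixed total per library) in the controls, 2590 to 2640 in the knockdown, 3150 in both rescue libraries and 2110 to 2390 in the mutant rescue. The 14 monocyte markers summed to 3180 to 3780 ppm in the controls, 11500 to 12000 in the knockdown, 8270 to 9460 in the rescue and 17000 to 24700 in the mutant rescue. The 20 interferon-stimulated genes summed to 298 to 333 ppm in the controls, 420 to 436 in the knockdown, 9960 to 11200 in the rescue and 2430 to 2500 in the mutant rescue. These sums depend on the library total and on the most abundant genes. The log2 differences depend instead on the authors' normalization, whose option is not stated, and the 2 scales can differ in the size of a change. In the mutant rescue against the knockdown, the median log2 difference was 0.01 over the S phase genes (2 called higher, 1 lower). Over the monocyte markers it was 0.13 (3 called higher, 0 lower). Of the S phase genes 14 were called lower in the knockdown than in the control, of the monocyte markers 9 were called higher, and all 20 interferon genes were called higher in each rescue group than in the knockdown. The S phase count was 9 without control 2 and 3 without either knockdown library. The part of these 3 gene groups in the members' differences was not tested. Of the markers of other cells, 6 of 9 T and NK cell, 5 of 6 B cell, 8 of 10 erythroid and megakaryocyte and 6 of 10 fibroblast and epithelial markers lay under 1 ppm in every library. With the remaining markers, the 4 lists summed to 35.1 to 44.4, 2.8 to 4.21, 45.9 to 59.3 and 9.7 to 14.5 ppm over the libraries. Each list held a marker called in at least 1 comparison.

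One library stood apart in the members. The second mutant rescue library was the highest of the 8 libraries for 17 of the 46 members, against 23.8% of all tested genes. It differed from the first mutant rescue library by more than 0.5 on the log2 scale in 14 members (30.4%), against 8.99% of all tested genes. In 13 of the 14 it was the higher one, and the exception was KDM4A, an H3K9 and H3K36 demethylase, at -0.52. The largest of these gaps were 1.23 for ASXL1, 1.06 for the acetyltransferase KAT2A, 0.99 for the H3K4 methyltransferases KMT2B and SETD1B, 0.98 for the H3K79 methyltransferase DOT1L and 0.84 for the H3K27 demethylase KDM6B. CREBBP, SUZ12, TET3, SETD1A, KMT2A, KMT2C and KDM1A made up the other 7, with gaps of 0.57 to 0.67. Such gaps were found in 4 members between the controls (8.70%, against 2.52% of all genes), in 0 between the knockdown libraries (against 0.967%) and in 3 between the rescue libraries (6.52%, against 4.24%). In a principal component analysis of the members, the first component held 46% of the variance, with the second mutant rescue library at 2.66 and the other 7 between -1.01 and 0.21. The median gap in the mutant rescue was 0.259 over the 23 members of higher transcript GC content and -0.014 over the 23 of lower content. Over the 11727 tested genes with a transcript, divided at the members' median, it was 0.035 and -0.004. Across the members, the gap had a rank correlation with GC content of 0.326 in the mutant rescue. In the knockdown, rescue and control it was -0.361, -0.338 and 0.004. With transcript length it was 0.21, 0.485, 0.575 and -0.103 in the same order of groups. Over the same 11727 genes, the correlations with GC content in that order were 0.099, -0.183, -0.356 and 0.062. Those with length were -0.032, 0.157, 0.316 and -0.451. The part of GC content or transcript length in the gaps was not tested.

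**Figure D1:**
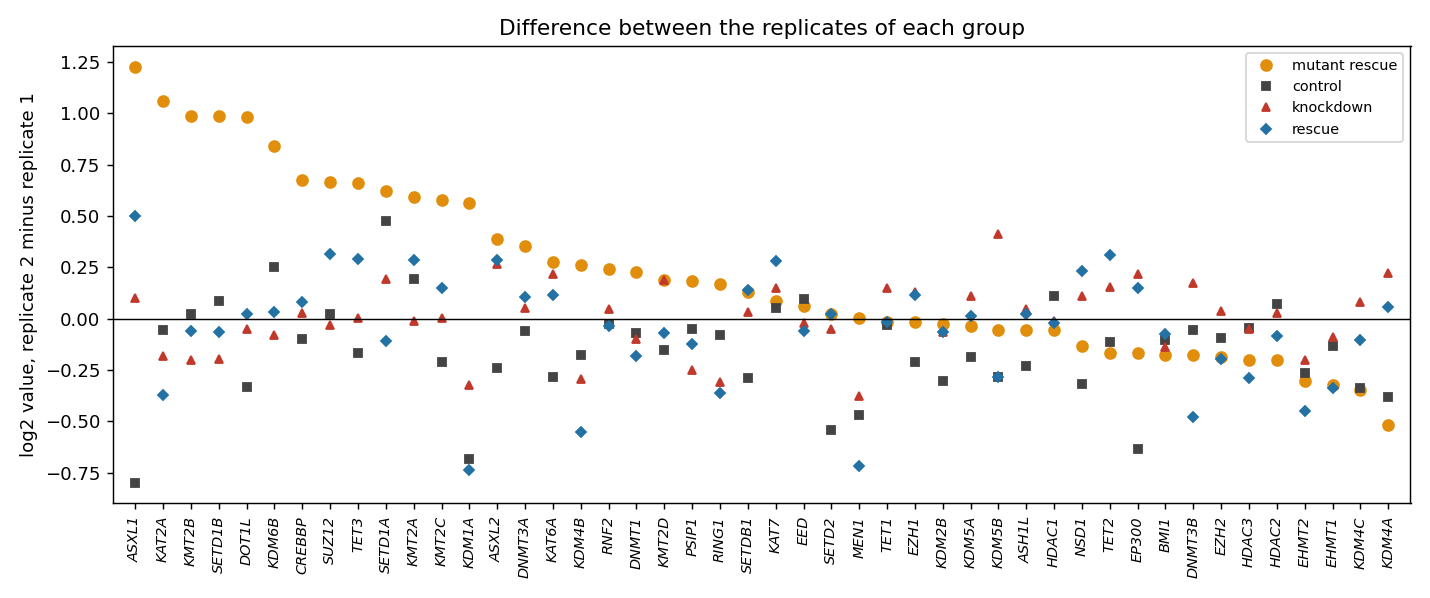
Difference in log2 value between replicate 2 and replicate 1 for each of the 46 members (x axis, ordered by the mutant rescue), with 1 point per group of 2 libraries. The mutant rescue points reach from 1.23 for ASXL1 to -0.52 for KDM4A, and 13 members lie above 0.5 there.

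The question of the first comparison is which regulators differ when IGF2BP2 is reduced. BMI1, the PCGF subunit of canonical PRC1 that sustains self-renewal of blood stem cells, fell in the knockdown. A gene is called here at a limma adjusted p under 0.05, with the Benjamini-Hochberg adjustment over all 13030 genes. Of the 46 members 1 was called lower (2.17%) and 0 were called higher, whereas 7.44% and 5.35% of all tested genes were. At an unadjusted limma p under 0.05, 6 members were lower and 2 higher, beside 16.0% and 13.0% of all tested genes. By the adjusted p in the authors' deposited table there were 0 higher and 4 lower, beside 6.72% and 13.4% of all tested genes. Both knockdown libraries lay above both controls in 16 members and below them in 11, beside 32.7% and 31.4% of all tested genes (34.8% and 23.9% of the members). Without either mutant rescue library, which this comparison uses only for the estimate of the spread, 4 members were called lower (BMI1, EZH2, NSD1 and DNMT1), beside 10.3% of all tested genes in the same fits. Without any 1 control or knockdown library BMI1 was not called. Without control 1, KDM2B was called higher (limma adjusted p = 0.0381). The median member difference was 0.03 on the log2 scale, beside 0.01 over all tested genes.

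BMI1 was at log2 values of 12.33 and 12.23 in the controls, 11.85 and 11.71 in the knockdown, 12.22 and 12.14 in the rescue, and 11.83 and 11.66 in the mutant rescue. Both knockdown and both mutant rescue libraries lay below all 4 libraries of the control and rescue groups. The knockdown was 0.50 below the control (SE 0.10, 95% confidence interval -0.73 to -0.27, 1.42-fold lower, limma adjusted p = 0.0174). The rescue was 0.43 above the mutant rescue (SE 0.10, 1.35-fold higher, adjusted p = 0.0335). The rescue was 0.40 above the knockdown without passing the threshold (interval 0.17 to 0.63, limma adjusted p = 0.0707), while the adjusted p of the authors' deposited table was 0.00317. The mutant rescue differed from the knockdown by -0.04 (interval -0.27 to 0.20) and the rescue from the control by -0.10 (interval -0.34 to 0.13). Each of the control and knockdown libraries was needed for the first call, whose limma adjusted p was 0.0703 without control 1, 0.058 without control 2, 0.103 without knockdown 1 and 0.179 without knockdown 2. The second call was lost without knockdown 1 (adjusted p = 0.0769), knockdown 2 (0.0771), rescue 1 (0.125), rescue 2 (0.127) or mutant rescue 2 (0.11). With quantile normalization the first call was lost (limma adjusted p = 0.0598), and the second was lost with no filter on low values (0.068) or the 2 groups alone (0.129), with 0.0883 in the authors' deposited table. BMI1 is overlapped on its own strand by the read-through gene COMMD3-BMI1, which stood at 7.74 and 7.17 in the controls and at 6.97 and 7.0 in the knockdown, and the sources used here do not say how reads were divided between them.

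**Figure D2:**
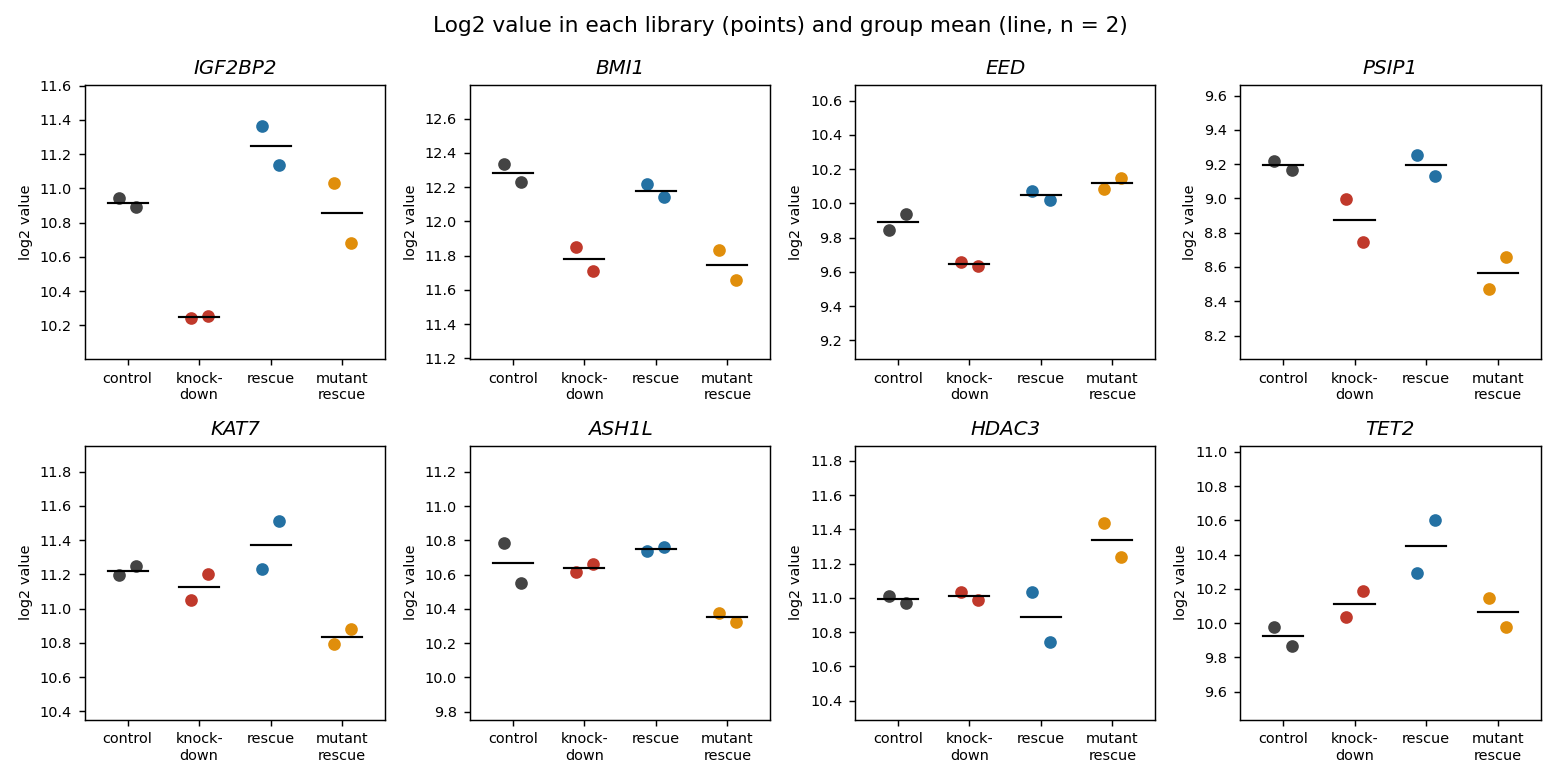
Log2 value in each library (points) and group mean (line, n = 2) of IGF2BP2 and of the 7 members called in any comparison, by group on the x axis; each y axis spans the same width. BMI1 lies at 11.66 to 11.85 in the knockdown and mutant rescue and at 12.14 to 12.33 in the control and rescue libraries.

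EED, the PRC2 subunit that binds trimethylated lysine 27 and stimulates the enzyme, was higher in both rescue groups than in the knockdown. It was at 9.84 and 9.94 in the controls, 9.66 and 9.64 in the knockdown, 10.08 and 10.02 in the rescue, and 10.09 and 10.15 in the mutant rescue. Scaled to ppm, EED was at 66.75 and 67.52 in the controls and at 59.66 and 58.66 in the knockdown. The rescue was at 73.13 and 70.97 ppm and the mutant rescue at 70.27 and 70.55 ppm, where the gap to the knockdown is smaller than on the log2 scale. The 4 libraries of the rescue groups lay above the other 4. Against the control, however, the rescue was not called, with group means of 10.05 and 9.89 (adjusted p = 0.707 in the authors' deposited table). The rescue exceeded the knockdown by 0.40 (SE 0.09, 1.32-fold, limma adjusted p = 0.0476) and the mutant rescue exceeded it by 0.47 (SE 0.09, 1.39-fold, adjusted p = 0.0216). The rescue and mutant rescue differed by -0.07 (interval -0.28 to 0.14), and the knockdown was 0.25 below the control without passing the threshold (difference -0.25, adjusted p = 0.115). The call of the rescue was lost without control 1 (limma adjusted p = 0.056), control 2 (0.0566), knockdown 1 (0.306), knockdown 2 (0.351), rescue 1 (0.222) or rescue 2 (0.155). That of the mutant rescue was lost without knockdown 1 (0.15), knockdown 2 (0.191) or mutant rescue 2 (0.0632). The call of the rescue was also lost with no filter on low values (limma adjusted p = 0.0863), median centring (0.085) or quantile normalization (0.0989). The call of the mutant rescue was also lost with the 2 groups alone (0.0612), and the authors' deposited table had 0.0546.

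The other PRC2 core subunits were called in no comparison. EZH2, the catalytic subunit of dividing cells, was at 10.14 and 10.05 in the controls, 9.68 and 9.72 in the knockdown, 10.07 and 9.87 in the rescue, and 9.73 and 9.55 in the mutant rescue. Its libraries order the groups as those of BMI1 do, with the knockdown -0.39 from the control (interval -0.65 to -0.14, limma adjusted p = 0.0514, 0.00599 in the authors' deposited table) and the rescue 0.33 above the mutant rescue (adjusted p = 0.0898). EZH2 is a gene of proliferating cells, and the S phase sums above differ between the same groups. Their part in this difference was not tested. EZH1, the paralog of resting cells, had its highest values in the knockdown, at 8.19 and 8.31, against 8.04 and 7.82 in the controls and 7.79 and 7.90 in the rescue. The difference of EZH1 was 0.32 for the knockdown against the control (interval 0.04 to 0.60, adjusted p = 0.127) and -0.40 for the rescue against the knockdown (adjusted p = 0.115). SUZ12 lay between 8.32 and 8.42 in the control and knockdown libraries, at 8.46 and 8.78 in the rescue, and at 8.61 and 9.27 in the mutant rescue. The mutant rescue was 0.53 above the knockdown (adjusted p = 0.111), and it was the second library that stood high. The pseudogene SUZ12P1, which resembles part of SUZ12, was also highest there, at 9.80, so that shared reads cannot be told apart from SUZ12.

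Among the remaining PRC1 members, none was called. RNF2, a catalytic subunit, stood at 10.19 and 10.43 in the mutant rescue and between 9.92 and 10.02 in the other 6 libraries. The mutant rescue was 0.37 above the knockdown (interval 0.13 to 0.61, limma adjusted p = 0.0544). Its alternative, RING1, was at 7.03 and 6.67 in the rescue against 7.41 and 7.10 in the knockdown (difference -0.40, adjusted p = 0.222). KDM2B, which brings a variant PRC1 to unmethylated CpG islands, was at 11.14 and 10.84 in the controls and at 11.35 and 11.28 in the knockdown, a difference of 0.33 (adjusted p = 0.0922). The Polycomb members thus showed both signs, with EZH2 and BMI1 on the lower side of the knockdown and EZH1 and KDM2B on the upper side. ASXL1 and ASXL2, partners of the deubiquitinase BAP1, lay between 6.11 and 7.59 and between 7.44 and 8.43, and ASXL1 had the widest range of all members at 1.48. For ASXL2 the rescue was -0.54 from the control (limma adjusted p = 0.115, 0.0456 in the authors' deposited table).

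**Figure D3:**
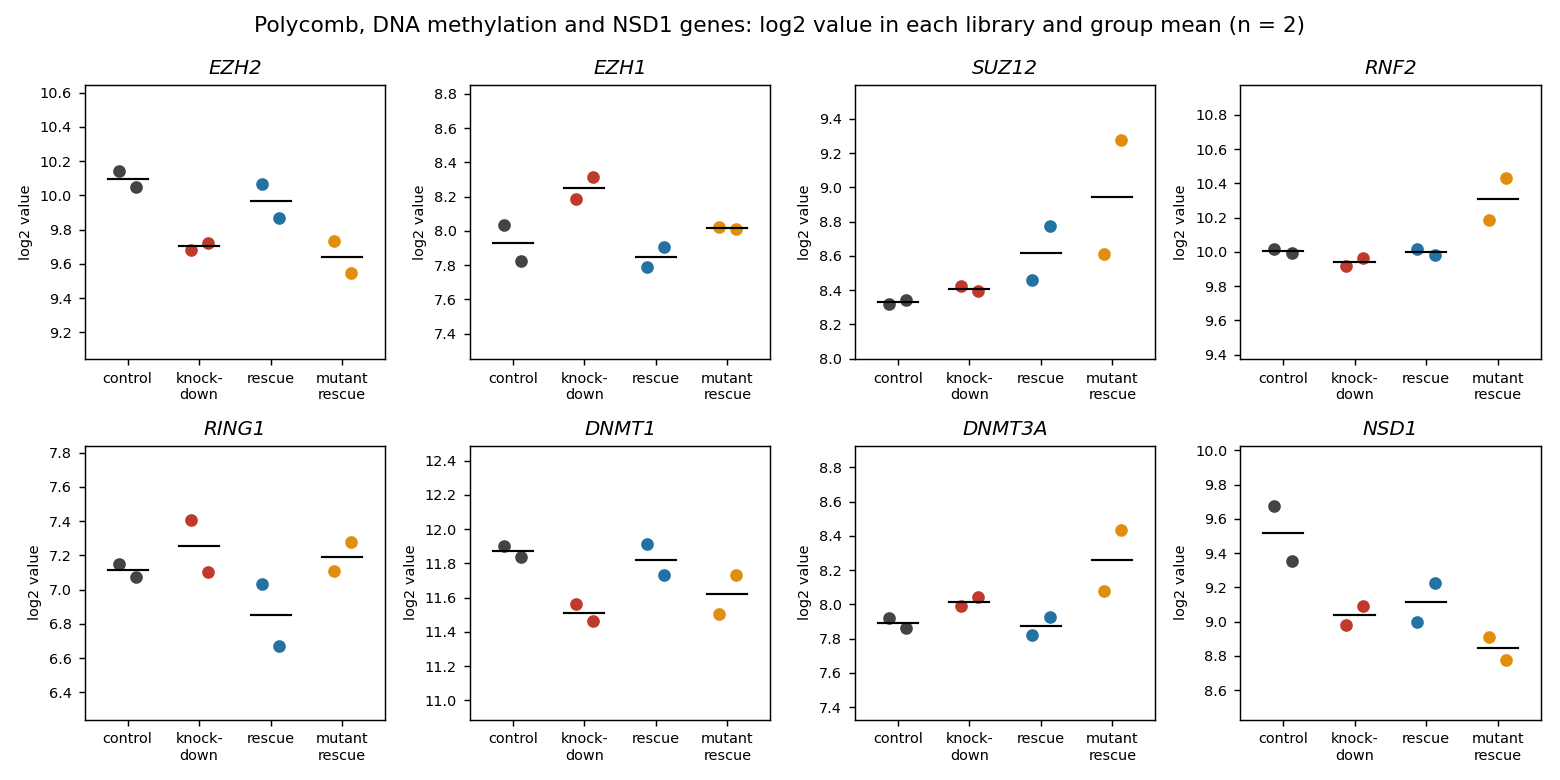
Log2 value in each library (points) and group mean (line, n = 2) of 8 Polycomb, DNA methylation and H3K36 genes that were called in no comparison; each y axis spans the same width. EZH2 lies at 10.05 to 10.14 in the controls and at 9.68 to 9.72 in the knockdown, and the 2 mutant rescue libraries of SUZ12 lie at 8.61 and 9.27.

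The comparison of the rescue with the mutant rescue asks what distinguishes the cells given the intact from those given the mutant protein. The 2 groups had group means of IGF2BP2 RNA of 11.25 and 10.86, from libraries at 11.36 and 11.13 in the rescue and at 11.03 and 10.68 in the mutant rescue. In the rescue, 19 of the 20 interferon-stimulated genes were called higher and 5 of the 14 monocyte markers lower. The design cannot tell these differences apart from the mutation. This comparison held the most member calls, with PSIP1, KAT7, ASH1L and BMI1 higher in the rescue and HDAC3 lower. These are 4 members called higher (8.70%) and 1 called lower (2.17%), beside 5.90% and 4.61% of all tested genes. At an unadjusted limma p under 0.05, 8 were higher and 4 lower, beside 14.9% and 16.3% of all tested genes. In the authors' deposited table, PSIP1 and KAT7 were higher and KDM6B was lower, beside 3.68% and 3.98% of all tested genes. Both rescue libraries lay above both mutant rescue libraries in 12 members (26.1%) and below them in 10 (21.7%), beside 27.7% and 30.2% of all tested genes. Without mutant rescue 1 the counts were 6 higher and 10 lower, beside 9.09% and 12.9% of all tested genes in that fit. Without mutant rescue 2 they were 1 and 0, beside 3.28% and 2.05%. The higher count was also 1 without either knockdown library or without rescue 1, and 0 without rescue 2. The median member difference was -0.04, beside -0.02 over all tested genes.

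PSIP1 encodes LEDGF, which ties the KMT2A and menin complex to chromatin marked by H3K36 methylation. It was at 9.22 and 9.17 in the controls, 9.0 and 8.75 in the knockdown, 9.26 and 9.13 in the rescue, and 8.47 and 8.66 in the mutant rescue. The mutant rescue libraries were the lowest 2 of the 8. The rescue exceeded the mutant rescue by 0.63 (SE 0.13, interval 0.35 to 0.92, 1.55-fold, limma adjusted p = 0.0191). The knockdown was -0.32 from the control (adjusted p = 0.132) and the rescue 0.32 from the knockdown (adjusted p = 0.204), neither passing. The call was lost without rescue 1 (limma adjusted p = 0.0839) or rescue 2 (0.0797). With mutant rescue 2 left out the difference was 0.72 (adjusted p = 0.0288). With the 2 groups alone the limma adjusted p of PSIP1 was 0.095.

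KAT7 encodes HBO1, an acetyltransferase of histone H3 and H4 that KMT2A-rearranged leukemias depend on. Its values were 11.20 and 11.25 in the controls, 11.05 and 11.20 in the knockdown, 11.23 and 11.51 in the rescue, and 10.79 and 10.88 in the mutant rescue. Here too both mutant rescue libraries were below all others. The rescue was 0.53 above the mutant rescue (SE 0.11, interval 0.27 to 0.79, 1.45-fold, limma adjusted p = 0.0246). The call was lost without knockdown 1 (adjusted p = 0.0566), knockdown 2 (0.057), rescue 2 (0.15) or mutant rescue 2 (0.0532), and in the last case the difference was 0.58. It was also lost with no filter on low values (limma adjusted p = 0.059) or the 2 groups alone (0.114).

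ASH1L, an H3K36 methyltransferase that acts against Polycomb and cooperates with LEDGF, was at 10.78 and 10.55 in the controls, 10.62 and 10.66 in the knockdown, 10.74 and 10.76 in the rescue, and 10.38 and 10.32 in the mutant rescue. Both mutant rescue libraries were again the lowest. The rescue was 0.40 above the mutant rescue (SE 0.10, interval 0.17 to 0.63, 1.32-fold, limma adjusted p = 0.0413). This call was lost without knockdown 1 (adjusted p = 0.0956), knockdown 2 (0.0957), rescue 1 (0.116), rescue 2 (0.179) or mutant rescue 2 (0.116). It was also lost with no filter on low values (limma adjusted p = 0.0877) or the 2 groups alone (0.127), and the authors' deposited table had 0.123.

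HDAC3, the deacetylase of the NCOR corepressor complexes, was the member called lower in the rescue. It was at 11.01 and 10.97 in the controls, 11.03 and 10.99 in the knockdown, 11.03 and 10.74 in the rescue, and 11.44 and 11.24 in the mutant rescue. The mutant rescue libraries were the highest 2 of the 8. The difference of rescue minus mutant rescue was -0.45 (SE 0.12, interval -0.72 to -0.18, 1.37-fold lower, limma adjusted p = 0.0472). The call was kept without rescue 1 and lost without each of the other libraries, at adjusted p-values of 0.0704 and 0.0705 without control 1 and 2, 0.0981 and 0.0982 without knockdown 1 and 2, 0.246 without rescue 2, 0.0941 without mutant rescue 1 and 0.0548 without mutant rescue 2. Without rescue 2 the difference was -0.30. The call was also lost with no filter on low values (limma adjusted p = 0.102), median centring (0.0594), quantile normalization (0.051), no mean trend (0.0563) or the 2 groups alone (0.161), and the authors' deposited table had 0.111.

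PSIP1, KAT7 and HDAC3 have genes on the opposite strand that overlap them in GENCODE v29 (SNAPC3, FAM117A and AC008781.1), ASH1L has ASH1L-AS1, and the sources used here do not say whether the counting used strand. In GRCh38, PSIP1 spans 15464066 to 15511019 of chromosome 9 on the minus strand, and KAT7 spans 49788555 to 49835030 of chromosome 17 on the plus strand. ASH1L spans 155335268 to 155562807 of chromosome 1 and HDAC3 141620876 to 141636870 of chromosome 5, both on the minus strand. All 4 are protein-coding genes.

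**Figure D4:**
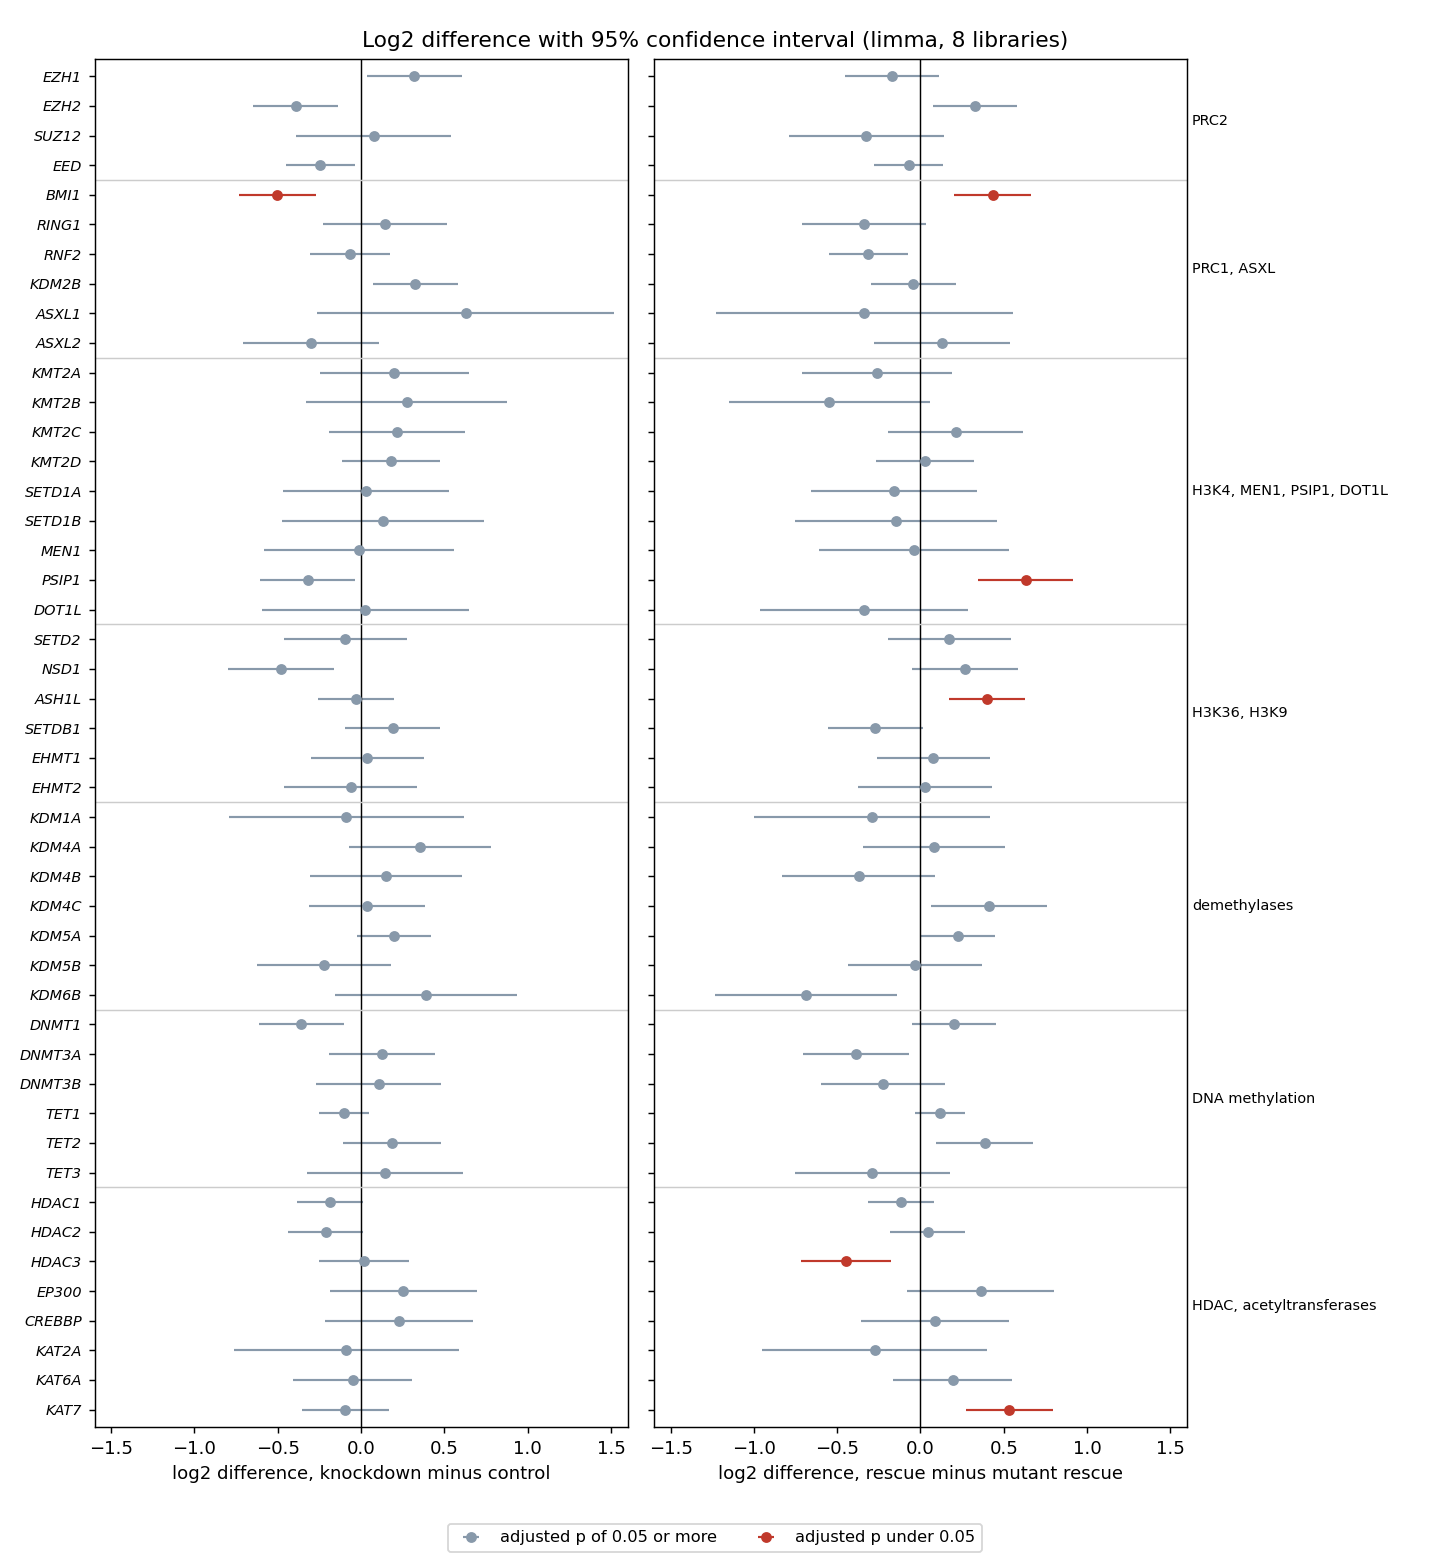
Log2 difference (points) with its 95% confidence interval (bars) for each of the 46 members in knockdown minus control (left) and rescue minus mutant rescue (right), ordered by function on the y axis. Red marks a limma adjusted p under 0.05, which BMI1 alone has on the left and BMI1, PSIP1, ASH1L, KAT7 and HDAC3 have on the right; ASXL1 and KDM1A have the widest intervals.

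The remaining H3K4 methyltransferases, MEN1 and DOT1L were called in no comparison. KMT2A was between 7.73 and 8.13 in 7 libraries and at 8.43 in the second mutant rescue library, and the reads of its fusion with MLLT3 cannot be told apart from those of the intact gene in a table of genes. MEN1 had group means of 6.60 to 6.65, with 6.96 and 6.24 in the rescue libraries. DOT1L was between 7.53 and 7.91 in 7 libraries and at 8.51 in the second mutant rescue library. KMT2D, an enhancer methyltransferase, was lower in both rescue groups than in the knockdown by the group means (-0.35 for the rescue, limma adjusted p = 0.177, and -0.38 for the mutant rescue, adjusted p = 0.0837). KMT2B, KMT2C, SETD1A and SETD1B had group means of 5.95 to 6.61, 9.15 to 9.41, 5.70 to 6.04 and 6.18 to 6.61. Of the 9 members of this class, PSIP1 was thus the one called.

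Of the H3K36 and H3K9 methyltransferases other than ASH1L, NSD1 had the largest difference. NSD1, which dimethylates H3K36, was at 9.68 and 9.36 in the controls, 8.98 and 9.09 in the knockdown, 9.0 and 9.23 in the rescue, and 8.91 and 8.78 in the mutant rescue. The controls lay above the 6 others. The knockdown was -0.48 from the control (interval -0.80 to -0.16, limma adjusted p = 0.0572, 0.00467 in the authors' deposited table) and the rescue was -0.40 from the control (adjusted p = 0.131). SETD2, SETDB1, EHMT1 and EHMT2 were called in no comparison, and their group means stayed within 9.02 to 9.24, 9.07 to 9.43, 9.64 to 9.72 and 10.02 to 10.11.

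None of the 7 histone demethylases of this class was called. KDM6B, which removes H3K27 methylation and is induced in activated myeloid cells, was at 6.45 and 6.71 in the controls, 7.01 and 6.93 in the knockdown, 6.59 and 6.62 in the rescue, and 6.87 and 7.71 in the mutant rescue. The knockdown and mutant rescue libraries lay above the other 4. The difference of rescue minus mutant rescue was -0.68 (interval -1.23 to -0.14, limma adjusted p = 0.0975, 0.044 in the authors' deposited table). Without mutant rescue 1 it was -1.11 and passed the threshold (adjusted p = 0.00294), and no such call was made without mutant rescue 2. KDM5A, an H3K4 demethylase, was at 10.84 and 10.85 in the rescue against 10.60 and 10.42 in the controls (difference 0.34, adjusted p = 0.0801). KDM1A, the H3K4 demethylase LSD1, had group means of 7.31 to 7.81, and its 2 controls, at 7.74 and 7.05, were further apart than its group means. KDM4A, KDM4B and KDM4C, which act on methylated H3K9 and H3K36, had group means of 9.49 to 9.85, 6.75 to 7.12 and 8.79 to 9.20. KDM5B, a paralog of KDM5A, had group means of 7.34 to 7.81.

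Of the DNA methylation genes, TET2 was called. TET2 oxidises 5-methylcytosine and limits self-renewal of blood stem cells, and it rose in the rescue above the control. It was at 9.98 and 9.87 in the controls, 10.03 and 10.19 in the knockdown, 10.29 and 10.60 in the rescue, and 10.15 and 9.98 in the mutant rescue. The 2 rescue libraries were the highest of the 8. The rescue was 0.53 above the control (SE 0.13, interval 0.23 to 0.82, 1.44-fold, limma adjusted p = 0.0452), 0.34 above the knockdown (adjusted p = 0.193) and 0.39 above the mutant rescue (adjusted p = 0.0855). The call was lost without control 1 (adjusted p = 0.108), control 2 (0.205), knockdown 1 (0.0932), knockdown 2 (0.0933) or rescue 2 (0.265). It was also lost with no filter on low values (limma adjusted p = 0.105), median centring (0.0619), quantile normalization (0.0513), no mean trend (0.0535) or the 2 groups alone (0.0731). TET2 spans 105145875 to 105279816 of chromosome 4 on the plus strand in GRCh38 and is overlapped by TET2-AS1. In this comparison of rescue and control it was 1 member called higher (2.17%) and 0 called lower, beside 4.91% and 2.27% of all tested genes. At an unadjusted limma p under 0.05, 3 members were higher and 3 lower, beside 12.1% and 10.3% of all tested genes. In the authors' deposited table, TET2 was higher and ASXL2 lower, beside 5.33% and 2.77% of all tested genes. Both rescue libraries lay above both controls in 12 members (26.1%) and below them in 10 (21.7%), beside 26.1% and 26.0% of all tested genes.

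DNMT1, which copies DNA methylation at replication, was at 11.90 and 11.84 in the controls, 11.56 and 11.46 in the knockdown, 11.91 and 11.73 in the rescue, and 11.50 and 11.73 in the mutant rescue. The knockdown was -0.36 from the control (interval -0.61 to -0.10, limma adjusted p = 0.0700, 0.00393 in the authors' deposited table). DNMT3A, a de novo methyltransferase, was at 8.08 and 8.43 in the mutant rescue and between 7.82 and 8.04 in the other 6 libraries, and the rescue was -0.38 from the mutant rescue (adjusted p = 0.105). DNMT1 and DNMT3A therefore stood on opposite sides in the knockdown, at -0.36 and 0.13 from the control, neither passing the test. DNMT3B, TET3 and TET1 had group means of 6.03 to 6.28, 6.06 to 6.39 and 3.99 to 4.20. TET1 lay close to the filter on low values, at 0.985 to 1.35 ppm, where the deposited values of all libraries lie close together.

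Of the other deacetylases and acetyltransferases, none was called. HDAC1 and HDAC2, the paired deacetylases of the NuRD and SIN3 complexes, had group means of 12.26 to 12.45 and 11.86 to 12.07. The knockdown differed from the control by -0.18 and -0.21, with intervals of -0.38 to 0.01 and -0.44 to 0.01. EP300 and CREBBP, paralogous acetyltransferases of enhancers, had group means of 9.22 to 9.62 and 7.93 to 8.42. KAT6A, an acetyltransferase of histone H3 that is itself a fusion partner in myeloid leukemia, had group means of 7.36 to 7.59. KAT2A, the SAGA acetyltransferase, was at 7.48 and 8.54 in the mutant rescue and between 7.19 and 7.92 elsewhere. The mutant rescue of KAT2A was 0.73 above the knockdown (interval 0.05 to 1.41, limma adjusted p = 0.127, 0.0369 in the authors' deposited table), and without mutant rescue 1 it was 1.26 (adjusted p = 0.00498).

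In the rescue against the knockdown, EED was the 1 member called higher (2.17%) and 0 were called lower, beside 3.22% and 1.02% of all tested genes. At an unadjusted limma p under 0.05, 6 members were higher and 3 lower, beside 11.5% and 8.16% of all tested genes. The authors' deposited table had EED and BMI1 higher and 0 lower, beside 7.04% and 3.08% of all tested genes. The rescue libraries lay above both knockdown libraries in 18 members (39.1%) and below them in 12 (26.1%), beside 31.3% and 26.9% of all tested genes. In the mutant rescue against the knockdown, EED was again the 1 member called higher (2.17%) with 0 lower, beside 5.58% and 5.73% of all tested genes. There 5 members were higher and 4 lower at an unadjusted limma p under 0.05, beside 19.3% and 14.1% of all tested genes. The authors' deposited table had KAT2A higher and 0 lower, beside 4.37% and 3.50% of all tested genes. The mutant rescue libraries lay above both knockdown libraries in 9 members (19.6%) and below them in 13 (28.3%), beside 37.1% and 25.9% of all tested genes. These 2 comparisons share the knockdown libraries. The median member differences were 0.01 and -0.04, beside 0.00 and 0.05 over all tested genes. With mutant rescue 1 left out, 10 members were called higher than the knockdown (beside 14.2% of all genes), and with mutant rescue 2 left out 0 were.

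In all, 7 members carried 9 calls in the 5 comparisons made, and 39 carried none. By comparison and direction, 1.02% to 7.44% of all tested genes were called. The share of all tested genes called in any of the 5 is not given, so the tally has no background beside it. The mutant rescue was not compared with the control. The differences of those 39 lay between -0.68 and 0.73, and the median 95% confidence interval of a member reached 0.36 to each side. That interval is not adjusted for the number of genes tested. With 2 libraries per group, changes of that size or somewhat larger were therefore for most members not detectable as calls. The authors' adjusted p was under 0.05 for 5 of the 9 calls and for 11 members in any of the 5 comparisons. By comparison and direction, 2.77% to 13.4% of all tested genes had such a p.

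Another 111 chromatin regulators in 8 classes, of which 106 were tested, serve as the surroundings of the members. In the knockdown 6 were lower (5.66%) and 4 higher (3.77%) than in the control, beside 7.44% and 5.35% of all tested genes. HAT1, which acetylates new histone H4, fell from 11.48 and 11.59 in the controls to 10.87 in both knockdown libraries, and stood at 11.23 and 11.28 in the rescue and at 11.08 and 11.02 in the mutant rescue. Its difference was -0.66 (SE 0.09, limma adjusted p = 0.00329), and without either knockdown library the adjusted p was at most 0.0613. RBBP7, a histone chaperone of PRC2 and of HAT1, fell by 0.43 (adjusted p = 0.0186) and the H3K9 methyltransferase SUV39H2 by 0.55 (adjusted p = 0.0212), and both calls were lost without any 1 of the control or knockdown libraries (highest adjusted p = 0.164 and 0.181).

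PCGF5, the PCGF subunit of a variant PRC1 and thus a relative of BMI1, rose in the rescue. It was at 8.15 and 8.13 in the controls, 7.56 and 7.84 in the knockdown, 9.20 and 8.97 in the rescue, and 7.88 and 7.77 in the mutant rescue. Both rescue libraries lay above the other 6. The rescue exceeded the knockdown by 1.39 (SE 0.14, limma adjusted p = 0.000602), the mutant rescue by 1.26 (adjusted p = 0.00148) and the control by 0.94 (adjusted p = 0.00424). All 3 calls were kept when any 1 library was left out, with a highest adjusted p of 0.0421. For BMI1 the same comparisons gave 0.40, 0.43 and -0.10, of which the second was called.

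Of the other regulators, 2 were higher (1.89%) and 0 lower in the rescue than in the knockdown, beside 3.22% and 1.02% of all tested genes. At an unadjusted limma p under 0.05 there were 9 and 6, beside 11.5% and 8.16% of all. The authors' deposited table had 4 and 3, beside 7.04% and 3.08% of all. In the mutant rescue 4 were higher (3.77%) and 5 lower (4.72%) than in the knockdown, beside 5.58% and 5.73% of all. In the rescue 7 were higher (6.60%) and 3 lower (2.83%) than in the mutant rescue, beside 5.90% and 4.61% of all. Without mutant rescue 1, 28 were higher in the mutant rescue than in the knockdown and 28 were lower in the rescue than in the mutant rescue, where 14.2% and 12.9% of all tested genes were called. KDM1B, an H3K4 demethylase related to KDM1A, was at 7.03 and 6.61 in the mutant rescue and between 7.37 and 7.82 in the other 6 libraries. The rescue of KDM1B exceeded the mutant rescue by 0.92 (SE 0.16, limma adjusted p = 0.0132) and the mutant rescue was -0.94 from the knockdown (adjusted p = 0.0164). The first call was lost without either rescue library (highest adjusted p = 0.0618) and the second without either knockdown library (highest 0.125), and both with the 2 groups alone. Against the control, 5 of the other regulators were higher in the rescue (4.72%) and 0 lower, beside 4.91% and 2.27% of all. At an unadjusted limma p under 0.05 there were 12 and 3, beside 12.1% and 10.3% of all. The authors' deposited table had 6 and 0, beside 5.33% and 2.77% of all.

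AFF4, a scaffold of the super elongation complex that KMT2A fusion proteins recruit, was -0.60 from the knockdown in the mutant rescue (limma adjusted p = 0.0282) and 0.61 higher in the rescue than in the mutant rescue (adjusted p = 0.0223). Its relative AFF1 was 0.67 higher in the latter comparison (adjusted p = 0.0388). The calls of AFF4 were lost without either knockdown library, the first also without mutant rescue 2 and the second without either rescue library (highest adjusted p = 0.18 and 0.126). That of AFF1 was kept only without either control library (highest 0.169). With the 2 groups alone the calls of AFF4, AFF1 and JMJD1C were lost, and with no filter on low values that of AFF1. JMJD1C, a demethylase of the KDM3 family, was 0.63 higher in the rescue than in the mutant rescue (adjusted p = 0.0167), a call lost without rescue 2 (0.119). RBBP5, a core subunit of the H3K4 methyltransferase complexes, was -0.48 there (adjusted p = 0.0467), a call kept only without mutant rescue 1 (highest 0.171) and lost under 6 of the 8 other settings. The class IIa deacetylases HDAC5 and HDAC7 were 0.62 and 0.49 higher in the knockdown than in the control (adjusted p = 0.0223 and 0.0353), and both calls were lost without any 1 of the control or knockdown libraries, that of HDAC7 also without either rescue library (highest 0.161 and 0.256). The call of HDAC5 was also lost with no filter on low values and that of HDAC7 with quantile normalization.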

How the data were processed

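The RNA of 8 MOLM13 libraries in 4 groups of 2 was measured, with groups and replicate numbers from the titles. Per the file headers, the authors' table came from HOMER's getDiffExpression.pl. The submitters' processing notes also list Trim Galore, kallisto and GRCh38, without versions. The value in each library is a log2 value, normalized by the authors before it was deposited, with the option not stated. The authors also deposited a log2 fold change, a p-value and an adjusted p-value for each pair of groups, from a model that is not stated. No table of counts was used, so sequencing depth is unknown and intervals cover the spread between libraries. Levels are not per gene length and were not compared between genes.

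Of 35370 rows, 1 had no symbol and 10937 were at 0 in every library. The 13030 genes that reached 1 ppm of a library's summed linear values in 2 or more libraries were fitted with limma 3.58.1 (R 4.3.3) on the log2 values, with no pseudocount, 1 mean per group, all 8 libraries, a mean trend and 4 residual degrees of freedom. The two-sided p-values were adjusted by Benjamini-Hochberg over these genes and called under 0.05. The mutant rescue was not compared with the control, so a gene called in no comparison was called in none of the 5 pairs tested. The fit was also run on simulated data in which each gene had the same spread in every group. In the data, the standard deviation of the replicate differences was 0.148 in the knockdown and 0.303 in the mutant rescue. That run is not used as support for any call. The alternatives were no filter, a filter of 5 ppm, median centring, quantile normalization, no mean trend, the 2 compared groups alone, a replicate block, the authors' adjusted p, and each library left out in turn. A lone library left in a group is assumed to vary like the others. The members and lists were chosen with earlier results of these data known. Called members are given library by library, and members called in none by range, or by value where they are core subunits. Those with an unadjusted p under 0.05, the authors' call or a wide replicate gap were named after their values were seen. Of other regulators, up to 3 per class and comparison with the smallest adjusted p were eligible to be named. All 111 had a row, 6 under an older symbol found among RefSeq synonyms. RefSeq promoters matched 43 members by symbol.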

Additional observations from a re-analysis of the deposited data

How the results depend on the processing

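With 2 libraries per group and 4 residual degrees of freedom, most calls of the members lie near the threshold, and the cause of their gains and losses was not tested. Of the 9 member calls, 3 remained with no filter, 9 with the 5 ppm filter, 6 with median centring, 5 with quantile normalization, 7 with no mean trend, 2 with the 2 compared groups alone, 8 with the replicate block and 5 by the authors' adjusted p. No member that was called in the limma fit changed sign under these settings. With the 2 groups alone fewer libraries estimate the spread.

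Percentages in brackets are the share of all genes called in the same setting and direction. Knockdown against control had 0 members higher (5.35%) and 1 lower (7.44%). Quantile normalization gave 1 higher (KDM2B, 5.71%) and 0 lower (6.54%). The 5 ppm filter gave 3 lower (10.4%) and the 2 groups alone 4 lower (11.1%). The replicate block gave 2 lower (7.68%) and the authors' adjusted p 4 lower (13.4%). Rescue against knockdown had 1 higher (3.22%), which became 0 with no filter (1.24%), median centring (2.48%) or quantile normalization (2.52%). It became 2 with the 2 groups alone (6.64%) or the authors' adjusted p (7.04%). Mutant rescue against knockdown had 1 higher (5.58%) and 0 with the 2 groups alone (0.944%). Rescue against mutant rescue had 4 higher (5.9%). This became 1 with no filter (1.96%), 0 with the 2 groups alone (1.13%) and 2 by the authors' adjusted p (3.68%). Its 1 lower (4.61%) became 0 with no filter (1.22%), median centring (3.55%), quantile normalization (4.41%), no mean trend (4.37%) or the 2 groups alone (0.345%). Rescue against control had 1 higher (4.91%), which became 0 under these same 5 settings (1.94%, 4.2%, 4.53%, 4.67% and 4.12%). Its 0 lower (2.27%) became 1 by the authors' adjusted p (2.77%).

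Leaving out 1 library at a time gave 0 to 1 members higher and 0 to 4 lower in knockdown against control, 0 to 2 higher and 0 lower in rescue against knockdown, 0 to 10 higher and 0 lower in mutant rescue against knockdown, 0 to 6 higher and 0 to 10 lower in rescue against mutant rescue, and 0 to 2 higher and 0 lower in rescue against control. Both values of 10 came from leaving out mutant rescue 1, where 14.2% and 12.9% of all tested genes were called in the same directions. Without either mutant rescue library 4 members were lower in the knockdown than in the control.

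The replicate numbers are not stated to pair the libraries, and the correlations of same-numbered libraries' deviations ran from -0.021 to 0.414 over the pairs of groups. With the replicate block EED in rescue against knockdown was lost (adjusted p = 0.0589) and BMI1 there was gained (adjusted p = 0.0454), and EZH2 was gained in knockdown against control (adjusted p = 0.041).

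Of the other regulators in knockdown against control, 4 were higher, with 1 under no filter, 7 with the replicate block and 7 by the authors' adjusted p, and 6 were lower, with 3 under no filter, 10 with the 2 groups alone and 14 by the authors' adjusted p. In rescue against knockdown 2 were higher, with 1 under no filter, median centring, quantile normalization, no mean trend or the replicate block and 4 with the 2 groups alone or by the authors' adjusted p, and 0 were lower, with 1 with the 2 groups alone and 3 by the authors' adjusted p. In mutant rescue against knockdown 4 were higher, with 0 under no filter, median centring, quantile normalization, no mean trend or the 2 groups alone and 9 with the replicate block, and 5 were lower, with 3 under no filter and 0 with the 2 groups alone. In rescue against mutant rescue 7 were higher, with 4 under no filter and 1 with the 2 groups alone, and 3 were lower, with 0 with the 2 groups alone and 6 by the authors' adjusted p. In rescue against control 5 were higher, with 2 under no filter and 3 with quantile normalization, and 0 were lower, with 1 under quantile normalization. Leaving out 1 library gave ranges, in the same order, of 0 to 6 and 0 to 9, 1 to 2 and 0 to 0, 0 to 28 and 0 to 8, 1 to 8 and 0 to 28, and 1 to 8 and 0 to 0, where each 28 came from leaving out mutant rescue 1. The S phase genes lower in the knockdown numbered 3 to 15 and those of G2 and M phase 2 to 15 (main 14 and 15), with the lowest counts without either knockdown library. Without control 2 each was 9. The monocyte markers higher there numbered 6 to 9, and the interferon genes higher in the rescue and mutant rescue than in the knockdown 20 to 20 and 17 to 20.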
